A study of Mus musculus with 2 samples.

Results

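The genes described are 9 of the 27376 genes in the deposited count table, chosen by symbol: the prolactin-family hormones Prl8a2 and Prl8a9, the prolactin receptor Prlr, its signal transducers Stat5a and Stat5b, the progesterone receptor Pgr, the placental gene Tpbpa, the kisspeptin gene Kiss1 and the endogenous retroviral gene Erv3. They were chosen with the difference between these libraries in view, so their values describe that difference and test nothing. RNA came from fresh prostate tumour tissue of mice aged 16 months, with 1 library for the genotype Bcat_Only and 1 for Met_Bcat. The labels do not say how many mice a library holds, nor do they spell out the genotype names, which share the part Bcat. The heading of the Bcat_Only column also carries the terms Bcat_ex3Plus and PB_Cre, that of the Met_Bcat column names no allele, and the labels explain neither the alleles nor the cells in which a Cre acts. The tissue was homogenised unsorted and no group has a replicate, so every difference compares these 2 libraries and not the genotypes, and fewer cells of a type cannot be told apart from less RNA per cell.

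Prolactin-family hormones are made by the pituitary, by the decidua, which is the uterine lining remodelled for pregnancy, and by trophoblast, the outer cell layer of the placenta. Prolactin binds a receptor of the cytokine class, whose associated kinase JAK2 phosphorylates STAT5A and STAT5B, and these enter the nucleus and switch on target genes such as the feedback inhibitors Cish and Socs2. Rodents carry a large cluster of prolactin-like genes, most of them used in pregnancy, and progesterone acting through its nuclear receptor drives the remodelling of the decidua. In the prostate, prolactin receptor and STAT5 are known in the epithelium.

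The sequences of the prolactin-family genes that had reads show how closely related they are. The first 51 coding bases, the length of a read, are given for Prl8a2, Prl8a9, Prl3c1 and Prl6a1, all on chromosome 13, from GENCODE vM21 transcripts, with capitals marking the longest stretch that Prl8a2 and Prl8a9 share in their coding sequences.
Prl8a2: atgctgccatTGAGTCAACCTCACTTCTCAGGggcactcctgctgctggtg
Prl8a9: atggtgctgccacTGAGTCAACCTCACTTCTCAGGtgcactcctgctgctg
Prl3c1: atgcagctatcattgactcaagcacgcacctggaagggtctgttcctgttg
Prl6a1: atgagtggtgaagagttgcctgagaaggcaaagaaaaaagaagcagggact
The shared stretch is 22 bases long, and 71.6% of the aligned coding bases of Prl8a9 are identical to Prl8a2, against 59.2% for Prl3c1 and 59.0% for Prl6a1. Of the 986 different 51-base words in the Prl8a2 transcripts and the 892 of Prl8a9, 0 occur in an annotated transcript of any other gene on either strand, so an error-free read from their exons could be assigned to its gene.

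Reads assigned to genes numbered 19301062 for Bcat_Only and 20117724 for Met_Bcat, with 18931 and 18472 genes detected. Levels are in CPM, counts scaled to library size by TMM. A read equals 0.0543 CPM for Bcat_Only against 0.0474 CPM for the other library, and intervals below are exact 95% intervals that cover counting error only. Of 13 luminal epithelial markers 5 were higher in Met_Bcat and 2 lower, with summed levels of 4552 and 7795 CPM. Of 9 prostate secretory markers found, 7 passed the minimum, 5 were higher and 1 was lower, and Msmb was listed at 0 in both libraries. Their summed levels were 125 CPM in Bcat_Only and 7666 CPM in Met_Bcat. Of 10 basal epithelial markers 4 were higher and 1 lower, with 1067 and 2186 CPM summed. Many stromal and immune markers were lower in Met_Bcat, 11 of 12 for fibroblasts (27337 and 1093 CPM summed), 10 of 10 for smooth muscle (746 and 123 CPM), 10 of 10 for neutrophils (4916 and 137 CPM, Elane listed at 0 in Met_Bcat) and 9 of 9 for macrophages (3213 and 589 CPM). Lower were also 8 of 9 B and plasma cell markers (6644 and 509 CPM) and 7 of 10 endothelial markers (761 and 490 CPM), but only 1 of 10 T and NK cell markers (58.0 and 36.1 CPM), with 0 higher in these lists. Seminal vesicle markers summed to 6877 and 4.74 CPM, 7 of 7 that passed the minimum were lower, with 4 of 8 listed at 0 in Met_Bcat. The part of these differences in tissue make-up in the results below was not tested.

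All 9 genes had a mean of at least 1 CPM, and all 9 ratios of Met_Bcat to Bcat_Only lay above 1, although that of Stat5b fell below 1 when libraries were scaled to the luminal markers. Prl8a2, Prl8a9 and Tpbpa (0 reads), Kiss1 (0.0543 CPM) and Pgr (0.977 CPM) were below 1 CPM in Bcat_Only. They passed the minimum only through Met_Bcat, so their place among the higher genes was largely set by it. Genes count as higher or lower here if their whole interval lies at or beyond a 2-fold difference. By that rule 7 of the 9 were higher, 0 were lower, and Stat5a and Stat5b were neither, where 4.42% of the 14354 genes considered were higher and 14.6% lower. At a 4-fold rule the same 7 genes were higher, against 1.75% of all genes considered. Prl8a2, Prl8a9 and Tpbpa were listed at 0 reads in Bcat_Only, as were 61 (0.415%) of the 14716 genes with at least 10 reads in Met_Bcat. These shares are given as background only, because the genes were picked on this contrast.

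**Figure D1:**
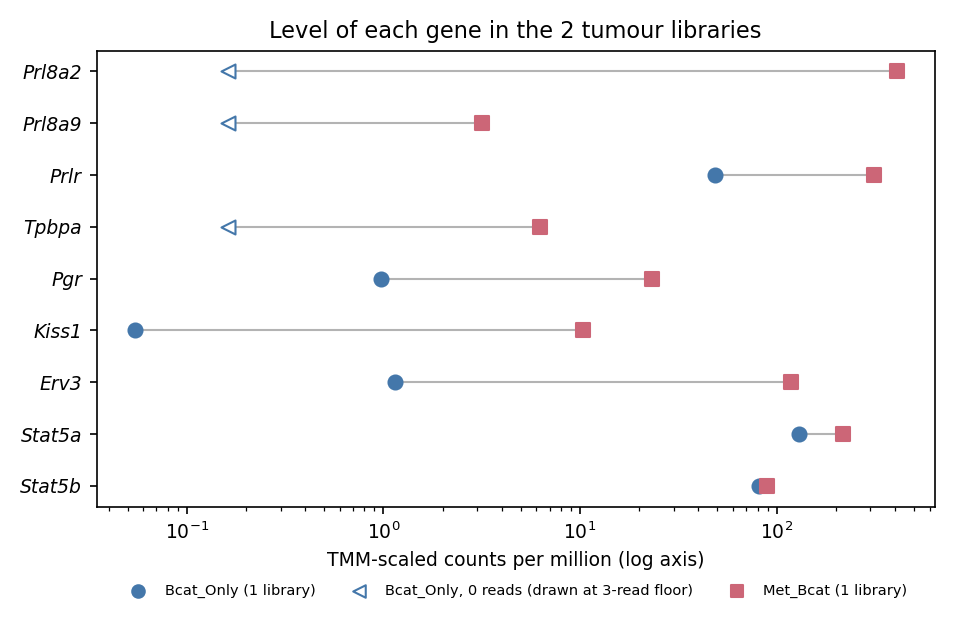
TMM-scaled CPM of the 9 genes on a log axis, with 1 library per genotype (circles Bcat_Only, squares Met_Bcat) and open triangles for 0 reads, drawn at the floor of 3 reads. Met_Bcat lies to the right for all 9 genes, by the widest gap for Prl8a2 (407.6 CPM against 0 reads) and the narrowest for Stat5b (89.7 against 81.7 CPM). Kiss1 in Bcat_Only is 1 read and so lies left of the floor.

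Among the prolactin-family hormone genes, Prl8a2 stood out in the Met_Bcat tumour. Whether its product binds the receptor encoded by Prlr cannot be told from read counts. Prl8a2 encodes the decidual prolactin-related protein, a hormone of the decidua in the mouse (ENSMUSG00000018259, mm9 chromosome 13, 27437552 to 27446085, plus strand). The Bcat_Only library held 0 of its reads and the Met_Bcat library 8590. The Met_Bcat level was 407.6 CPM, at least 2503-fold above the floor of 3 reads in Bcat_Only, while the exact interval of the ratio, used for the 2-fold rule, began at 2035-fold. Per kilobase of exon this was 439 CPM, rank 58 of the 18472 genes detected in that library. Its reads made up 0.0427% of the library (exact interval 0.0418% to 0.0436%), and in Bcat_Only the floor of 3 reads was 0.163 CPM. No other gene considered had the near end of its interval as high as Prl8a2.

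Prl8a9 encodes a prolactin-like protein of the placenta (ENSMUSG00000006490, chromosome 13, 27649878 to 27656473, minus strand). Its reads numbered 0 in Bcat_Only and 67 in Met_Bcat, 3.18 CPM, at least 19.5-fold above the floor, with the exact interval from 15.4-fold. Both prolactin genes were thus detected in 1 of the 2 libraries, but at very different levels. Per kilobase of exon, Prl8a2 stood 128-fold above Prl8a9 in Met_Bcat, and of the reads of the pair 99.2% (exact interval 99.0% to 99.4%) were from Prl8a2.

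The rest of the family was almost silent. Of 26 prolactin-family genes in the table, 20 were listed at 0 in both libraries, 6 had reads in Met_Bcat and 0 had reads in Bcat_Only. Besides Prl8a2 and Prl8a9 these were Prl3c1, a decidual family member, with 8 reads, Prl6a1, expressed in decidua and placenta, with 8, Prl2c5 with 3 and Prl7a2 with 1. Prl8a2 held 99.0% of the 8677 family reads in Met_Bcat. Prl, the pituitary hormone gene itself, had 0 reads in both libraries, and so did Gh, the growth hormone gene, and the pituitary factor Pou1f1. Of 8 pituitary markers, 6 were listed at 0 in both libraries, and Pomc (3 and 2 reads) and Lhb (4 and 4) were at most at 4 reads.

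The position of Prl8a2 inside the cluster was examined gene by gene. The cluster on chromosome 13 (27149439 to 28243480, about 1094 kb) held 23 prolactin-family genes, of which 18 were listed at 0 in both libraries. The nearest genes on either side were Prl6a1, 26430 bases away with 0 and 8 reads, and Prl2b1, 29122 bases away with 0 and 0. The 2 other genes inside the cluster had 0 reads. Prl8a2 and Prl8a9 alone in the cluster exceeded 8 reads in Met_Bcat, and they are not next to each other.

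**Figure D2:**
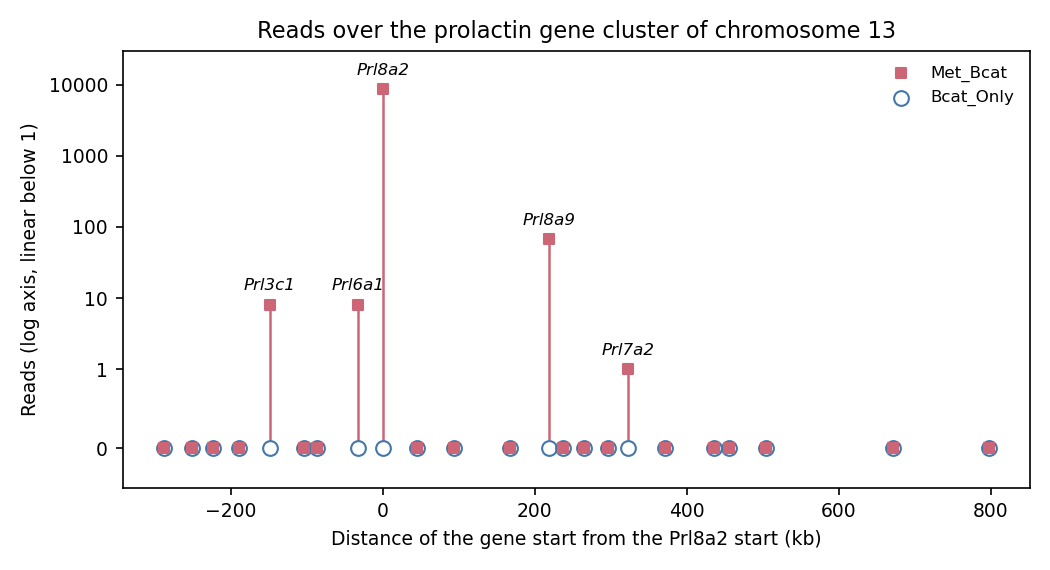
Reads of the 23 prolactin-family genes of the chromosome 13 cluster against the distance of each gene's start from that of Prl8a2 in kb, on a log axis that is linear below 1 (squares Met_Bcat, open circles Bcat_Only). Prl8a2 with 8590 reads and Prl8a9 with 67 rise above the other genes in Met_Bcat, and every gene is at 0 in Bcat_Only.

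Promoters were looked up for Prl8a2, Prl8a9, Erv3 and Kiss1 only. The RefSeq promoter table (GRCm38.p6) matched Prl8a9, Erv3 and Kiss1, and not Prl8a2. The 250 bases before the start were searched on both strands for the STAT5 motif TTCNNNGAA, for TGTTCT, a half-site shared by the progesterone and glucocorticoid receptors, and for the TCF/LEF letters CTTTGAT or CTTTGTT. Of the matched genes, Prl8a9 and Erv3 have no other gene overlapping them. Their windows are shown for the letters themselves, with capitals marking a match.
Prl8a9, chr13:27564607-27564856, minus strand: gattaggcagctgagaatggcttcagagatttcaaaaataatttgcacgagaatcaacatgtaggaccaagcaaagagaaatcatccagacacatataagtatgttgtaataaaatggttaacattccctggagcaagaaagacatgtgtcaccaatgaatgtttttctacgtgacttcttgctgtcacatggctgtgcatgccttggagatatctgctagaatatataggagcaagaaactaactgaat
Erv3, chr2:131859748-131859997, minus strand: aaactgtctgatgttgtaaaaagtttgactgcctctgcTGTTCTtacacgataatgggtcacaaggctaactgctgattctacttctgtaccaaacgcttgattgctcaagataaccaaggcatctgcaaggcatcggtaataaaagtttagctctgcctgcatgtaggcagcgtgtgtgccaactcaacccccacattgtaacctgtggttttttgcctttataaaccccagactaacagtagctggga
The Erv3 window held TGTTCT once, beginning 212 bases before the start, and the windows of Prl8a9 and Kiss1 held none of these letters. Among all 32851 windows of this length, 16.1% held TGTTCT, 7.02% TTCNNNGAA and 8.06% a TCF/LEF form.

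Prlr, the receptor of prolactin (ENSMUSG00000005268, chromosome 15, 10106993 to 10303504, plus strand), was detected in both libraries and was higher in Met_Bcat. Its 900 reads in Bcat_Only and 6625 in Met_Bcat gave 48.9 and 314 CPM, a 6.43-fold higher level (6.0 to 6.91). Of the genes considered, 226 (1.57%) had a ratio at least as high. Per kilobase of exon the level was 3.15 CPM in Bcat_Only and 20.3 CPM in Met_Bcat, over an exon length of 15494 bases that sums all isoforms and so lowers the value if 1 short isoform predominates. The counts do not separate the long receptor form from the short forms. The next gene downstream, Agxt2, overlaps Prlr by 15218 bases on the same strand and had 0 and 6 reads, and Dnajc21, 73006 bases away, was 1.18-fold higher (1.04 to 1.34), below the 2-fold rule.

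Stat5a and Stat5b encode the transcription factors that act below the receptor, and they are neighbours on chromosome 11, 8626 bases apart on opposite strands. For Stat5a (ENSMUSG00000004043, bases 100720665 to 100746483) there were 2406 reads in Bcat_Only and 4581 in Met_Bcat, 131 and 217 CPM, a 1.66-fold higher level (1.58 to 1.75) that was below the 2-fold rule. Stat5b (ENSMUSG00000020919, bases 100642045 to 100712038) had 1506 and 1891 reads, 81.7 and 89.7 CPM, a ratio of 1.10 (1.03 to 1.18) that changed sign on the log2 scale, to −0.21, when libraries were scaled to the luminal markers. The balance of the pair shifted towards Stat5a. Stat5a held 61.5% of the pair's reads in Bcat_Only, with an exact interval of 60.0% to 63.0%. In Met_Bcat it held 70.8%, with one of 69.7% to 71.9%. Per kilobase of exon, Stat5a stood 1.24-fold above Stat5b in Bcat_Only and 1.88-fold above it in Met_Bcat. The genes share 598 of their 51-base words, 8.07% of those of Stat5a and 10.8% of those of Stat5b, and reads from these stretches cannot be assigned with certainty. On the other side of Stat5a, Stat3, which overlaps its end by 72 bases on the opposite strand, was 2.30-fold lower in Met_Bcat (2.22 to 2.39).

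Of 28 other JAK and STAT signalling genes considered, 0 were higher in Met_Bcat, 6 were lower and 22 were neither, where 4.42% of all genes considered were higher and 14.6% lower, so these counts lie near the background. The median log2 ratio was −0.74 against 0.03 over all genes considered. Lower were Socs3, an inhibitor induced by cytokines, at 7.06-fold (6.41 to 7.80), Jak3 at 4.07-fold (3.50 to 4.75), the cytokine receptor chains Csf2rb at 3.27-fold, Il2rg at 2.91-fold and Csf2ra at 2.78-fold, and Stat3. Jak3, Csf2rb, Il2rg and Csf2ra are known from blood cells. In Met_Bcat 10 of 10 neutrophil, 9 of 9 macrophage and 8 of 9 B and plasma cell markers were lower. Of the T and NK cell markers only 1 of 10 was lower. Whether tissue make-up plays a part was not tested. Jak2, the kinase that the prolactin receptor uses, had 195 and 119 CPM, 1.63-fold lower (1.55 to 1.72) and below the rule. The growth hormone receptor Ghr, close kin of Prlr, had 71.4 and 41.3 CPM, a ratio of 0.58.

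Of 12 genes known to respond to STAT5, 0 were higher and 4 lower, beside the same 4.42% and 14.6% of all genes, with a median log2 ratio of −0.26. A count of 0 among 12 lies near that background. Cish, a feedback inhibitor induced by STAT5, had 403 and 396 reads, a ratio of 0.86 (0.75 to 0.99), and Socs2, another, had 989 and 1046 reads, a ratio of 0.92 (0.85 to 1.01). Lower in Met_Bcat were Glycam1, a secreted mucin of mammary gland and lymph node vessels, with 156 reads against 1 and a ratio of 178-fold (31.6 to 7093), Tnfsf11, which encodes the cytokine RANKL, at 46.2-fold (24.9 to 97.1), Socs3, and the growth factor gene Igf1 at 5.47-fold (5.17 to 5.79). Igf1 is also expressed by fibroblasts and macrophages, most of whose markers were lower, and whether this plays a part was not tested. The milk protein genes Csn1s1, Csn1s2a, Csn2 and Wap were listed at 0 in both libraries, and Csn3 (6 and 3 reads) and Lalba (1 and 5) were near it.

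Pgr, the nuclear receptor of progesterone (ENSMUSG00000031870, chromosome 9, 8900419 to 8965425, plus strand), had 18 reads in the Bcat_Only library and 491 in the other. These were 0.977 and 23.3 CPM, a 23.8-fold higher level (14.9 to 40.6). Per kilobase of exon the Met_Bcat level was 4.88 CPM, above 54.2% of the genes detected there, so the gene was in the middle of the range even where it was high. Gm16485, a predicted gene that begins 6365 bases past the end of Pgr on the same strand, had 13 and 316 reads, 21.2-fold higher (12.2 to 40.4). Arhgap42, the next gene, on the opposite strand, had a ratio of 0.97 (0.91 to 1.03). With the reads of Gm16485 added to those of Pgr, the ratio was 22.8-fold (15.9 to 33.7). That sum was added once the values were known. Of the 8494 51-base words of Pgr, 0 occur in an annotated transcript of another gene.

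Other steroid receptors differed less than Pgr. Esr1, the oestrogen receptor, had 133 and 230 CPM, a ratio of 1.73 (1.65 to 1.82), and Nr3c1, the glucocorticoid receptor, 104 and 105 CPM, a ratio of 1.01. Of 21 steroid receptor and progesterone receptor partner genes considered, 2 were higher, 2 lower and 17 neither, against 4.42% higher and 14.6% lower of all genes, with a median log2 ratio of 0.30 that turned to −0.05 when libraries were scaled to the luminal markers. Higher were Greb1, an oestrogen-induced gene, at 5.45-fold (4.05 to 7.45) and Fkbp4, a cochaperone of the progesterone receptor, at 2.11-fold (2.03 to 2.19). Lower were Fkbp5, another cochaperone of steroid receptors, at 2.85-fold (2.67 to 3.05) and Paqr7, a membrane progesterone receptor, at 2.66-fold (2.17 to 3.27).

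Of 17 genes known to respond to progesterone that were considered, 4 were higher, 6 lower and 7 neither, against 4.42% and 14.6% of all genes. Their median log2 ratio was −0.24. The list does not sort genes by whether progesterone raises or lowers them, so these counts do not measure a response. Areg, which encodes the growth factor amphiregulin, had 20 and 324 reads, 14.2-fold higher (9.02 to 23.5). Hand2, a transcription factor of the uterine stroma, had 164 and 1407 reads, 7.50-fold higher (6.38 to 8.87). The other higher genes were Wnt4 at 2.91-fold and Gata2 at 2.61-fold. Lower were Tnfsf11, given above, Muc1, a cell-surface mucin, at 15.6-fold (10.6 to 23.7), Ltf, lactoferrin, at 3.96-fold, Fkbp5, Fst at 2.76-fold and Errfi1 at 2.56-fold. Ltf is also a neutrophil granule gene, and 10 of 10 neutrophil markers were lower. Whether this plays a part was not tested.

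The decidualisation list, which takes in genes of the uterine remodelling itself, also split. Of 19 considered, 8 were higher, 6 lower and 5 neither, against 4.42% and 14.6% of all genes. The median log2 ratio was 0.52 against 0.03 over all genes. Besides Hand2 and Fkbp4, the higher genes were Tdo2, a tryptophan-degrading enzyme, with 8 and 109 reads and 11.9-fold (5.84 to 28.3), Htra1, a secreted protease, at 5.09-fold (4.68 to 5.53), the secreted signals Wnt4 and Bmp2 at 2.91-fold and 2.85-fold, the connexin gene Gja1 at 2.90-fold and the homeobox gene Hoxa10 at 2.23-fold. Lower were Dcn, the proteoglycan decorin, at 7.70-fold (7.45 to 7.96), Ptgs2, a prostaglandin synthase, at 4.35-fold, the cytokine Lif at 4.28-fold, its receptor Lifr at 3.74-fold, Des, the muscle filament desmin, at 3.18-fold and Cebpb at 2.48-fold. Dcn is itself among the fibroblast markers counted above and Des among the smooth muscle markers, so those counts are not separate from these genes. Whether tissue make-up plays a part was not tested. Igfbp1, a decidual secretory gene best known in human decidua, had 0 and 1 reads.

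Over all 9 related lists, 104 genes other than the 9 were considered, of which 12 (11.5%) were higher against 4.42% of all genes and 23 (22.1%) lower against 14.6%. Their median log2 ratio was −0.07.

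**Figure D3:**
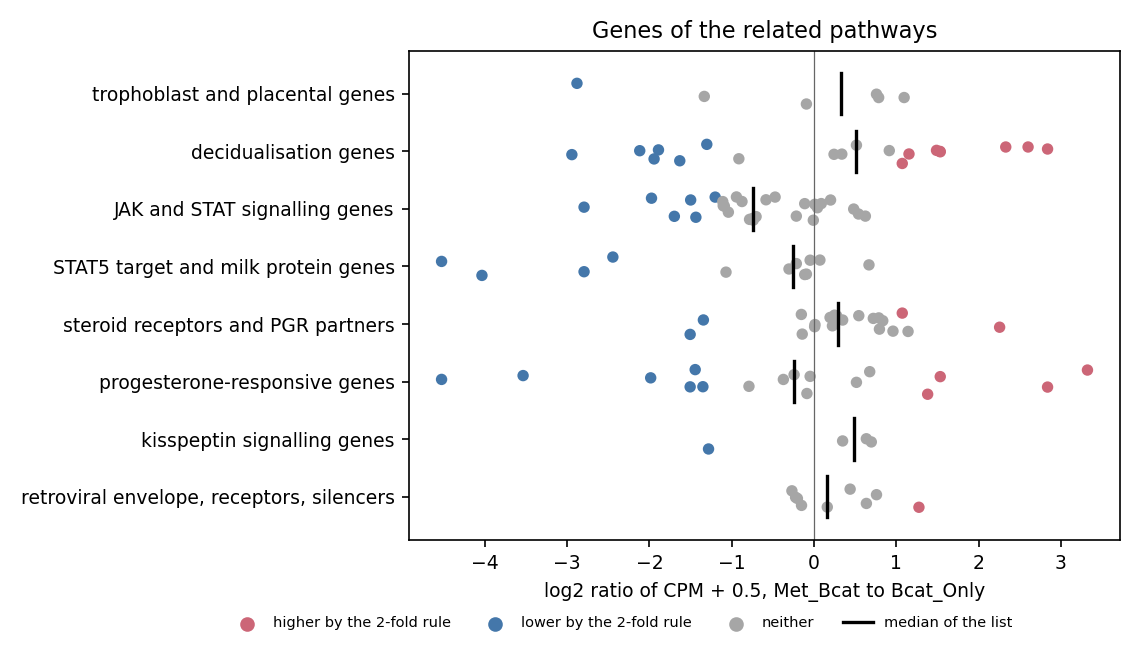
log2 ratio of CPM plus 0.5, Met_Bcat to Bcat_Only, for genes of 8 related lists past the 1 CPM minimum, 1 point per gene, coloured by the 2-fold rule, with the list median as a bar. The decidualisation list has points on both sides (8 higher and 6 lower), while the JAK and STAT list has 0 higher and 6 lower.

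Among the placental genes, Tpbpa was detected in Met_Bcat alone. Tpbpa is a marker of spongiotrophoblast, a layer of the mouse placenta (ENSMUSG00000033834, chromosome 13, 61040053 to 61043296, minus strand). Against 0 reads in Bcat_Only it had 132 in Met_Bcat, 6.26 CPM, at least 38.5-fold above the floor, with the exact interval from 30.8-fold. Its paralogue Tpbpb, 33844 bases away, was listed at 0 in both libraries, and 36 of the 2177 words of Tpbpa (1.65%) are shared with it. In all, 88 of the Tpbpa words (4.04%) occur in the same sense in annotated transcripts of other genes, the most in C330022B21Rik (41). The nearest gene, Ctla2a, 2066 bases away on the same strand, was far more abundant and went the other way, at 701 and 434 CPM, 1.62-fold lower (1.57 to 1.66) and below the rule.

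Other trophoblast genes were mostly absent or near the floor. Of 31 found, 12 were listed at 0 in both libraries, among them Tpbpb and the placental cathepsins Cts3, Cts6, Cts7, Cts8, Ctsj, Ctsm and Ctsr, and 6 passed the minimum. Of these 6, 0 were higher and 1 was lower, which is near the 4.42% and 14.6% of all genes. The lower gene was Pappa2, a protease that cleaves IGF binding proteins, with 65 reads against 1 and a ratio of 74.4-fold (12.9 to 2982). Tfap2c, a trophoblast transcription factor also found in other epithelia, was 1.74-fold higher (1.55 to 1.96), and Psg17, a pregnancy-specific glycoprotein, 3.58-fold lower (1.97 to 6.90), both below the rule. The list median was 0.33 and turned to −0.50 over 10 genes with a minimum of 0.2 CPM. Below the minimum, trophoblast transcription factors went both ways. Cdx2, also a gut factor, had 0 and 24 reads, at least 6.99-fold above the floor, with the exact interval from 5.26-fold. Ascl2 had 24 and 1 reads, 27.5-fold lower (4.48 to 1129), Eomes 22 and 2 reads, 12.6-fold lower (3.09 to 110), and Hand1 8 and 0 reads.

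Kiss1 encodes kisspeptin, a peptide of the hypothalamus that is also abundant in human placenta (ENSMUSG00000091251, chromosome 1, 135218452 to 135226478, plus strand). A single read in Bcat_Only stood against 219 in Met_Bcat, 0.0543 and 10.4 CPM, a ratio of 191-fold (34.0 to 7596). This gene cannot be read alone. Golt1a, a Golgi transport gene just before it on the same strand, overlaps it by 1152 bases and had 32 and 486 reads, 13.3-fold higher (9.28 to 19.6). All 729 of the 51-base words of Kiss1 also occur in transcripts annotated as Gm28040, which join exons of Golt1a to those of Kiss1, so a read from kisspeptin exons can stem from either. The summed reads of both genes gave 18.7-fold (13.2 to 27.3), also a sum added once the values were known. Ren1, the renin gene 20608 bases downstream, was also higher, with 78 and 2264 reads, 25.4-fold (20.2 to 32.2). The next genes outward differed less, Plekha6 at 1.48-fold, Etnk2 at 2.51-fold (1.73 to 3.71) and Sox13 at a ratio of 0.65, none past the rule. The kisspeptin receptor Kiss1r had 23 and 14 reads, a ratio of 0.53 (0.25 to 1.08), and of the 4 kisspeptin signalling genes considered 0 were higher and 1 lower, Plcb1 at 2.54-fold, too few to set against the 4.42% and 14.6% of all genes.

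**Figure D4:**
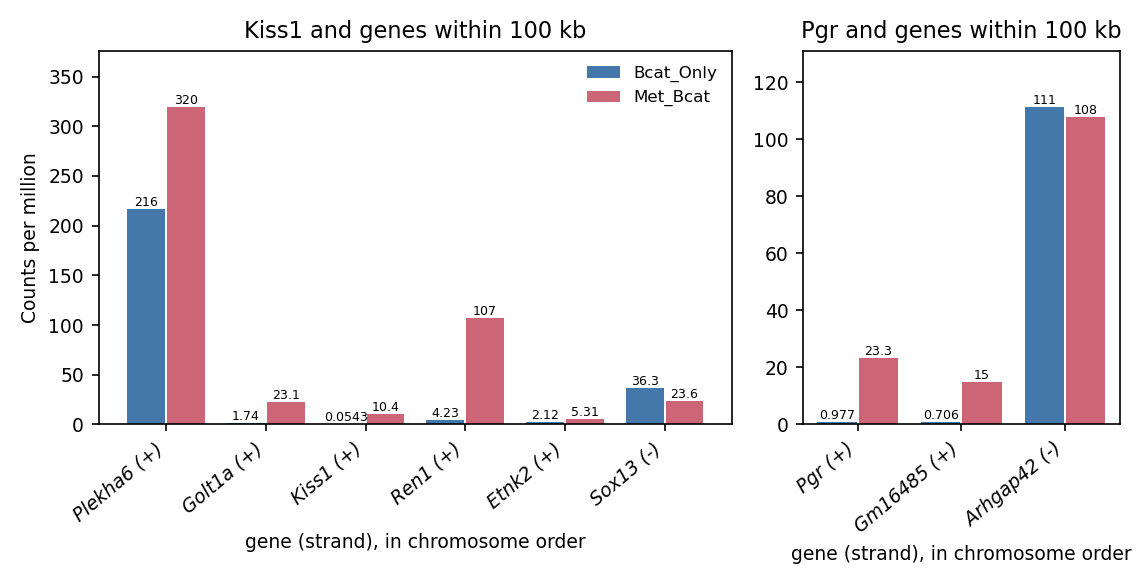
CPM in Bcat_Only and Met_Bcat (1 library each, value above each bar) for Kiss1 and Pgr and every gene within 100 kb, in chromosome order with the strand in brackets. Golt1a, Kiss1 and Ren1 are all higher in Met_Bcat beside Plekha6 and Sox13, and Pgr and Gm16485 are higher beside Arhgap42 (111 and 108 CPM).

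Erv3, a gene derived from a retroviral envelope whose human namesake is known from placenta (ENSMUSG00000037482, chromosome 2, 131679414 to 131685483, minus strand), had 21 reads in the Bcat_Only library and 2507 in the other. These were 1.14 and 119 CPM, 104-fold higher (68.1 to 169). Per kilobase of exon the Met_Bcat level was 35.2 CPM, below Prl8a2 alone among the 9 genes and close to Stat5a at 30.5 CPM. The neighbours of Erv3 that passed the minimum did not share its direction. Prnp, the prion protein gene, 50180 bases away on the opposite strand, was 2.47-fold lower (2.32 to 2.63). Prnd, whose annotated span overlaps that of Prnp on the same strand, was 3.38-fold lower (2.38 to 4.87). On the strand of Erv3, 5330413P13Rik, 6017 bases away, had 1 and 0 reads, too few to give a direction. Of the 51-base words of Erv3, 0.674% occur in the same sense in annotated transcripts of other genes. Unannotated retroviral copies were not searched. The retroviral envelope genes of the mouse placenta were near the floor, Syna with 2 and 0 reads and Synb with 2 and 1. Of 9 genes considered among retroviral envelopes, their receptors and their silencers, 1 was higher, Mfsd2a, a lipid transporter and the receptor of human syncytin, at 2.53-fold (2.06 to 3.12), and 0 were lower, near the 4.42% and 14.6% of all genes. Trim28, a silencer of retroviral elements, had 215 and 334 CPM, a ratio of 1.56.

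The pattern of Prl8a2, at most 1 read in Bcat_Only and many in Met_Bcat, was rare. Apart from the 9 genes, those with the most Met_Bcat reads included Fam115e with 323, Itln1, an intestinal lectin, with 243, 2310002L13Rik with 136, Fgf20, a growth factor, with 108 and Ndp, a ligand of Frizzled receptors, with 81. Their share of the scaled level of both libraries that lay in Met_Bcat ran from 99.0% to 100%, and it was 100% for Prl8a2 and 99.5% for Kiss1. In reads, Prl8a2 stood apart from these 5, and 3 genes in all had 0 reads in Bcat_Only with at least 100 in Met_Bcat, namely Prl8a2, Tpbpa and 2310002L13Rik.

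**Figure D5:**
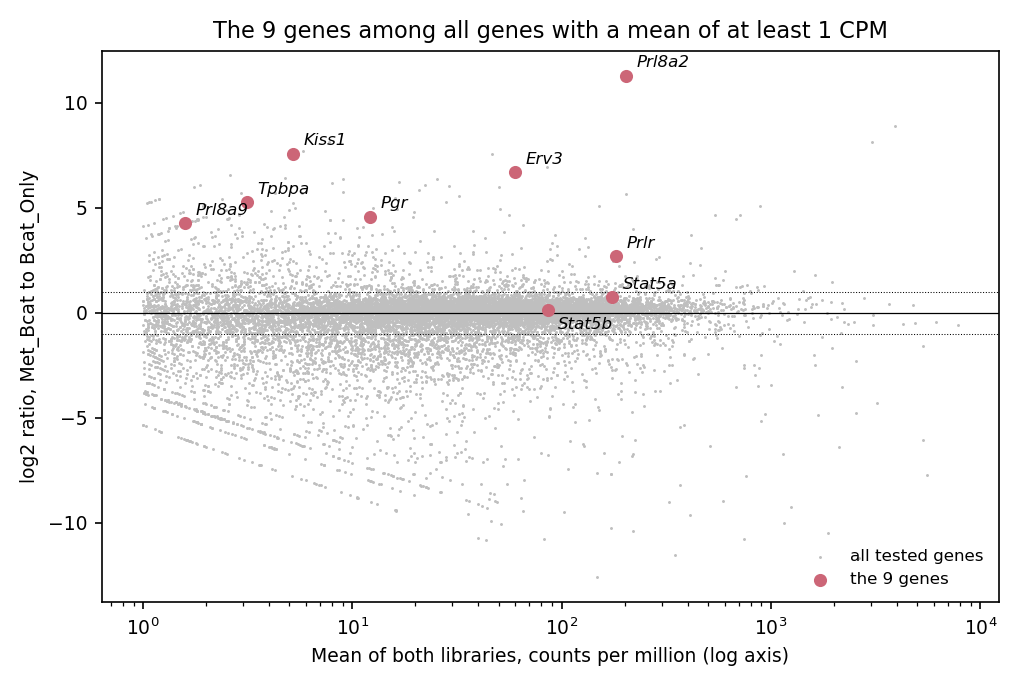
log2 ratio of Met_Bcat to Bcat_Only against the mean level in CPM (log axis) for the 14354 genes past the 1 CPM minimum (grey) and the 9 genes (red), with counts of 0 set to 3 reads and dotted lines at 2-fold. Prl8a2 lies highest, drawn at 2503-fold for a floor of 3 reads (exact interval from 2035-fold), and Stat5a and Stat5b lie within the dotted lines.

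In order of level per kilobase of exon in Met_Bcat, the genes ran Prl8a2 (439 CPM), Erv3 (35.2), Stat5a (30.5), Prlr (20.3), Stat5b (16.2), Kiss1 (13.3), Pgr (4.88), Tpbpa (4.56) and Prl8a9 (3.43). In Bcat_Only the order was Stat5a (18.3), Stat5b (14.8), Prlr (3.15), Erv3 (0.337), Pgr (0.205) and Kiss1 (0.0697), with Prl8a2, Prl8a9 and Tpbpa at 0 reads. Per kilobase, the transducers and the receptor thus led in Bcat_Only, while a hormone gene and Erv3 led in Met_Bcat. The exon length of Prlr sums all isoforms, which can lower its place. In CPM without exon length, the Met_Bcat order began with Prl8a2 (407.6), Prlr (314), Stat5a (217) and Erv3 (119). With 1 library per genotype there is no spread between samples by which neighbours in these orders could be separated.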

How the data were processed

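The authors deposited raw read counts for each gene as whole numbers, with Ensembl identifiers, symbols, mm9 coordinates and exon lengths in bases, per the file headers. Per the labels' protocols, 200 ng of total RNA entered a stranded mRNA kit with 10 PCR cycles, sequenced as single-end reads of 51 bases. Alignment and counting tools named in the submitters' processing notes are TopHat2 (version 2) and HTSeq, with edgeR and the build mm9. Not given in the sources used here are the strand setting and how reads with several matches were treated.

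Columns were matched to samples by the sample number in each heading. Counts were scaled with TMM factors (edgeR 4.0.16, R 4.3.3), 0.955 for Bcat_Only and 1.05 for Met_Bcat, and expressed as CPM, also per kilobase of exon. Each ratio carries an exact (Clopper-Pearson) 95% interval conditional on the summed reads (scipy 1.17.1). Without molecular identifiers, PCR copies count as separate reads, so intervals and floors cover counting error only. A count of 0 was set to a floor of 3 reads, and folds against it are bounds for that floor. The 2-fold rule uses the exact interval, which begins lower. List medians use log2 of CPM plus 0.5, which understates differences of low genes. No p-value was computed, because each genotype has 1 library. The procedure was tested on simulated counts that held counting error only, so that test does not bear on spread between mice or tissue samples. The genes, the 9 related lists, the 12 marker lists and the rule for naming genes (the 9 genes, family members with reads, up to 4 genes a list, genes within 100 kb of 6 of the genes, and 6 genes most like Prl8a2) were chosen with earlier results of these data known. Other genes that a list's count includes, the neighbours of Tpbpa and of the Stat5 genes, and pathway genes given as values were named after their values were seen. Of the genes the rule or the lists take in, 2 are not reported here. Of 297 list symbols, 2 were unmatched and 4 were matched through reference names. Transcripts (GENCODE vM21) and promoters (RefSeq, GRCm38.p6) are of another build than the counts, so they served for sequences only. Their coordinates are not comparable with the mm9 ones.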

Additional observations from a re-analysis of the deposited data

How the results depend on the processing

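Compared with TMM scaling, log2 ratios move by 0.13 with total counts, 0.07 with upper-quartile factors, −0.0003 with DESeq2 size factors and −0.34 with scaling to the luminal markers. Under these 4 scalings 7 of the 9 genes were higher and 0 lower, the same genes each time. The same held at a minimum of 0.2 CPM, with no minimum, at a 4-fold rule and with the interval ignored. The lowest near interval end of the 7 was log2 2.59 (Prlr), so none of these settings could have changed the calls. With a minimum of 10 CPM, 6 genes remained and 4 were higher (Erv3, Pgr, Prl8a2 and Prlr), because Kiss1, Tpbpa and Prl8a9 lie below it. The ratio of Stat5b changed sign under luminal scaling (log2 −0.21), where that of Stat5a was 0.39 and that of Prlr 2.34. Of all genes, 356 were higher and 1226 lower at 10 CPM, and 251 and 1086 at 4-fold. Of the related genes, 5 were higher and 8 lower at 4-fold, and 35 were lower under luminal scaling. The median of all genes was −0.31 under luminal scaling and −0.018 with no minimum. List medians that changed sign were those of the trophoblast genes (−0.43 under luminal scaling, −0.50 at 0.2 CPM, −0.091 with no minimum), the steroid receptor partners (−0.047 under luminal scaling) and the retroviral genes (−0.18 under luminal scaling, −0.15 with no minimum). The cause was not tested. No paired analysis was possible because each genotype has 1 library, and none could be left out. With 18 reads for Pgr, 21 for Erv3 and 1 for Kiss1 in Bcat_Only, depth limits the upper ends of their ratios.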
